A study of Homo sapiens with 8 samples.

Results

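GCNT2 and 6 other enzymes that branch or cap sugar chains were followed across human breast cell lines: GCNT1, GCNT3, FUT1, FUT3, A4GALT and HS3ST3A1. Every probe that the platform annotation gives to these 7 genes was taken, 10 probes of the 24526 on the array. GCNT2 has 4 of them, annotated to 3 transcripts, and each was kept apart, while the other genes have 1 probe each. The messenger RNA was measured on 8 Illumina bead arrays, 1 for each culture. SUM1315, MDA-MB231 and SUM159, named basal-like breast cancer cells in the labels, carried no transgene. A stable IRX5 transfectant and a stable LacZ transfectant of SUM159 were the other cancer cultures, IRX5 being a homeobox transcription factor and LacZ the control gene. The remaining 3 cultures were HMLE, an immortalized mammary epithelial line, stably transfected with LacZ, Gcnt2 or Foxq1, the last a forkhead transcription factor. All 3 HMLE cultures thus carried a transgene, and no untransfected HMLE was analysed here. Promoter, species and extent of the constructs, and whether a transfected line was a clone or a pool, were not stated in the sources used here.

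The 7 enzymes act late in glycan assembly, in the Golgi. GCNT2 transfers N-acetylglucosamine as a side branch onto straight poly-N-acetyllactosamine chains, which turns the i blood-group antigen into the branched I antigen, and its gene uses alternative first exons that give separate transcripts. GCNT1 and GCNT3 start the core 2 branch of mucin-type O-glycans. FUT1 adds the fucose of the H antigen, the base of the ABO groups, and FUT3 is the Lewis fucosyltransferase, which makes the Lewis antigens of epithelia. A4GALT adds the galactose that makes globotriaosylceramide, the Pk antigen, from lactosylceramide. HS3ST3A1 belongs to another chain: it puts a 3-O-sulfate on glucosamine units of heparan sulfate.

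GCNT2 carries 4 annotated starts on chromosome 6 in RefSeq, and the 250 bases before each are shown because its probes behaved differently from one another. The windows before the starts of FUT3 and HS3ST3A1, whose levels separated the lines most among the other members, follow them. They are RefSeq sequence of build GRCh38.p14, written 5′ to 3′, with matches to the E-box CAGGTG (or CACCTG on the other strand) in capitals. This E-box is the letter pattern that the SNAIL and ZEB repressors of epithelial genes are known to bind.
GCNT2 start 1, chr6:10521101-10521350, plus strand: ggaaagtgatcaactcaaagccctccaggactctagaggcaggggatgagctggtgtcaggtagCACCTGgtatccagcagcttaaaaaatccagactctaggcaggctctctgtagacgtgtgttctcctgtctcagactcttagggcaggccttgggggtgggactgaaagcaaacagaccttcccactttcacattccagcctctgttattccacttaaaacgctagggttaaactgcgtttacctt
GCNT2 start 2, chr6:10528120-10528369, plus strand: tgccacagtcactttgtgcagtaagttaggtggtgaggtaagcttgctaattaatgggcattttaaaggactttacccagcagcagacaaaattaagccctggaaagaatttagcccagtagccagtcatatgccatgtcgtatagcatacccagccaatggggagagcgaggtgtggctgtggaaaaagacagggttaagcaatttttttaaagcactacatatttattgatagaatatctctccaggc
GCNT2 start 3, chr6:10555559-10555808, plus strand: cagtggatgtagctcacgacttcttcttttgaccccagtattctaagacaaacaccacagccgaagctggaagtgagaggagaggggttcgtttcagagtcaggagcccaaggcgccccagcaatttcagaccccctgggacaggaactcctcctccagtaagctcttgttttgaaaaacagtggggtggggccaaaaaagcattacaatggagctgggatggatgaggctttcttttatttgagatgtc
GCNT2 start 4, chr6:10585510-10585759, plus strand: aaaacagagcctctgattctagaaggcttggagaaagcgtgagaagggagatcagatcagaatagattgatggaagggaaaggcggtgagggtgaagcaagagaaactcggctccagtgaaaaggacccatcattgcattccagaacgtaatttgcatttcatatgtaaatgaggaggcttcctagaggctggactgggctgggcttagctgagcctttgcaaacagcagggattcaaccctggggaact
FUT3, chr19:5851450-5851699, minus strand: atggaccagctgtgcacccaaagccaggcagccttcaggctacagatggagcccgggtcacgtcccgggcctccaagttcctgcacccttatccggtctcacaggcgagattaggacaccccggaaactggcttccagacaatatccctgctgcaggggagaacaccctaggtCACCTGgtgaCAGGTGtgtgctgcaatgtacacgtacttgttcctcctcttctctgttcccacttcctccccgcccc
HS3ST3A1, chr17:13601930-13602179, minus strand: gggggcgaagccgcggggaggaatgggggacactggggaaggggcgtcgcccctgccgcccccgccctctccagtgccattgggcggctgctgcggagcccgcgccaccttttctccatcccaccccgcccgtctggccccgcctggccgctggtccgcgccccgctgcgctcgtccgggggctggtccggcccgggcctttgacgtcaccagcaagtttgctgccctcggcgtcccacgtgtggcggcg
The first GCNT2 window held 1 E-box and the FUT3 window held 2, while the other GCNT2 windows and that of HS3ST3A1 held none. All 7 genes matched the RefSeq table, with 15 windows in all, of which 4 had an E-box; of all 35116 windows of that length 17.5% had one. TGTTTA, a core of forkhead sites searched on both strands, was present in 1 of the 15 windows, the third of the 4 GCNT1 starts, against 11% of all windows. The G and C content was 42.8% to 50.4% in the GCNT2 windows, 59.2% for FUT3 and 76% for HS3ST3A1, with a median of 58% over all windows. Which start feeds the transcript of which probe was not analysed here, and these matches are a description of letters.

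Values are probe intensities as the authors deposited them, on a linear scale after their normalization between arrays. A probe was taken as detected above 141, a limit drawn from the spread of dim intensities around their mode of 109. Folds are of background-corrected values on a log2 scale and were called at 2-fold or more. Where one array of a pair lay under the limit it was raised to the limit and the fold is given as "at least", a bound on the corrected scale that can exceed the ratio of the intensities. Each group had a single array, so no difference could be set against replicates and none carries a p-value. The LacZ and untransfected arrays of SUM159 served as the reference pair. Bulk RNA cannot tell fewer cells of a type from less RNA per cell. Between 56.2% and 56.3% of probes were detected in each array, a likeness that follows from the normalization between arrays and is no check of their quality. KRT5 and KRT14, keratins of basal epithelium, read 8303 to 21430 in HMLE and 93.8 to 113 in the cancer lines, so the basal-like label of those lines was not matched by these keratins. VIM (vimentin) read from 7074 in HMLE Gcnt2 to 42195 in SUM1315. CDH5 and VWF of endothelium, PLIN1 of adipocytes and CD3E of T cells lay under the limit everywhere, while other markers of these cell types were above it: CD14 (148 to 1574), PECAM1 (187 to 282) and LEP (305 to 459) in all 8 arrays, LYZ in 7, FABP4 in 4, KDR in 2 and PTPRC and ADIPOQ in 1. The single FOXQ1 probe read 299 in the array labelled Foxq1 and 1641 in HMLE LacZ, against the label, and the IRX5 probe read 151 in the array labelled IRX5 and 165 in SUM159 LacZ. In the array labelled Foxq1, 13.9% of 649 genes with several bright probes had probes over 4-fold apart in their difference from LacZ, against 0 of 613 for Gcnt2 and 0 of 646 in the reference pair.

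Of the 10 member probes, 8 were above the limit in at least 1 array, or 7 without the array labelled Foxq1. A4GALT was the only member detected in all 8 arrays, FUT1 and HS3ST3A1 were detected in 7 and 6, and FUT3 in the 3 HMLE arrays alone. The GCNT2 probes for NM_145655 and one of the probes for NM_001491 were detected in none.

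The GCNT2 probes differed in pattern, also between the pair annotated to NM_001491. Probe ILMN_1680390, annotated to NM_001491, was the cancer-line signal of GCNT2: it read 680 in SUM1315, 809 in MDA-MB231, 621 in SUM159, 496 in the array labelled IRX5 and 388 in SUM159 LacZ. In HMLE the same probe read 123 with LacZ, 129 with Gcnt2 and 154 in the array labelled Foxq1, so the 5 cancer arrays and the 3 HMLE arrays did not overlap. The share of all probes without overlap was not computed, so this separation cannot be called particular to GCNT2. Between the LacZ cultures of HMLE and SUM159, 15.3% of 15180 probes were called. The break between the groups, from SUM159 LacZ down to the array labelled Foxq1, was 2.53-fold in intensity. Every other step between neighbours in the order of arrays was at most 1.28-fold, inside the 1.60-fold range of the 3 SUM159 arrays, so the order among the cancer lines is not resolved. The lowest cancer value and the highest HMLE value are the LacZ and labelled Foxq1 arrays, and leaving out the latter widens the gap.

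Probe ILMN_1666986, annotated to NM_145649, stood far above its other values in the Gcnt2 transfectant. It read 9104 in HMLE Gcnt2, against 157 in SUM1315, 145 in MDA-MB231, 125 in SUM159, 115 in the array labelled IRX5, 105 in SUM159 LacZ, 106 in HMLE LacZ and 89.1 in the array labelled Foxq1. Outside HMLE Gcnt2 only SUM1315 and MDA-MB231 passed the limit, both by little. The highest value was 58.0 times the next.

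The remaining GCNT2 probes stayed at background. The other NM_001491 probe, ILMN_1807970, ranged from 112 in SUM159 to 134 in SUM159 LacZ, and it did not follow its partner: it read 126 in SUM1315 and 121 in MDA-MB231, where ILMN_1680390 was brightest. The probe for NM_145655 ranged from 97.5 in SUM159 LacZ to 116 in MDA-MB231. In HMLE Gcnt2 these probes read 122 and 106, so 1 of the 4 GCNT2 probes set the Gcnt2 culture apart. Probe positions within the transcripts were not analysed here, and a probe outside a construct checks nothing about it. In the comparisons that follow, the NM_001491 probe is ILMN_1680390, since its partner was under the limit in every array.

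**Figure D1:**
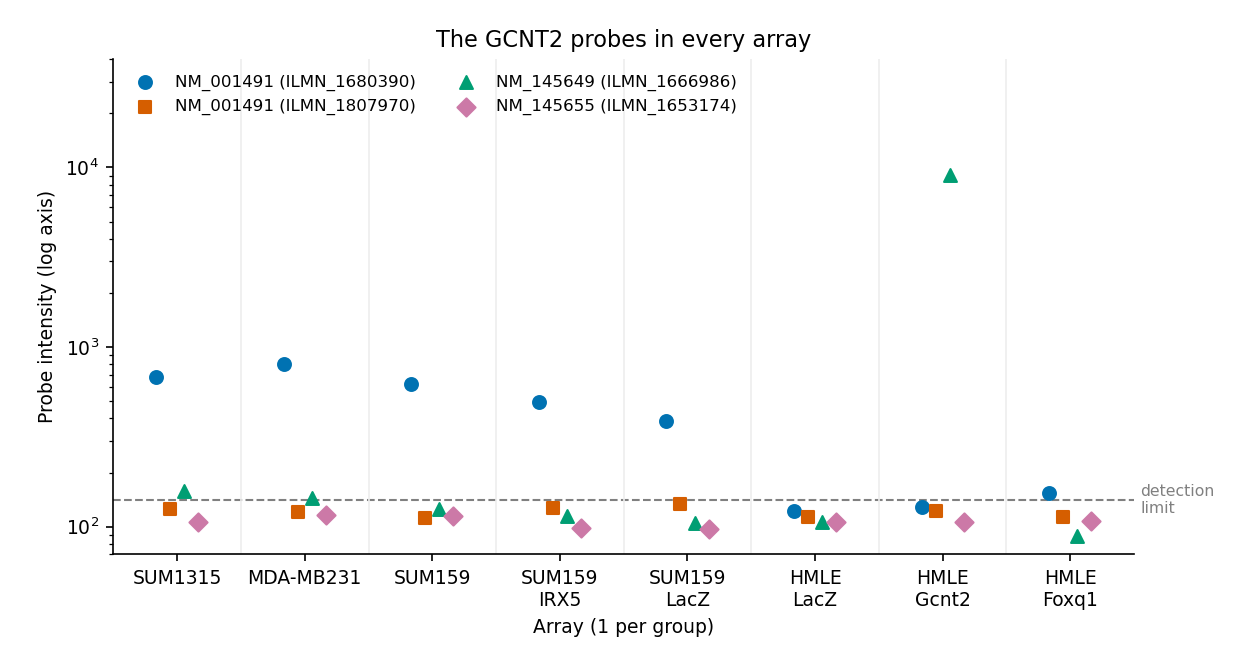
Intensity (log axis) of the 4 GCNT2 probes in each of the 8 arrays, 1 point per probe and array, with the detection limit of 141 as a dashed line. The NM_001491 probe ILMN_1680390 lies between 388 and 809 in the 5 cancer arrays and between 123 and 154 in HMLE, and the NM_145649 probe reaches 9104 in HMLE Gcnt2 alone.

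The relatives GCNT1 and GCNT3 were near the limit in every culture. GCNT1 read 104 in SUM1315, 113 in MDA-MB231, 119 in SUM159, 104 in the array labelled IRX5, 128 in SUM159 LacZ, 134 in HMLE LacZ, 111 in HMLE Gcnt2 and 147 in the array labelled Foxq1, the one array where it was detected. GCNT3 ranged from 99.8 in MDA-MB231 to 151 in HMLE Gcnt2, again the one array above the limit, with 135 in HMLE LacZ. None of the 9 comparisons gave either gene a fold of 2. These levels are too close to background to order the cultures.

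FUT3, the Lewis enzyme, was detected in HMLE alone. It read 412 in HMLE LacZ, 801 in HMLE Gcnt2 and 176 in the array labelled Foxq1. In the cancer arrays it read 102 in SUM1315, 126 in MDA-MB231, 122 in SUM159, 116 in the array labelled IRX5 and 127 in SUM159 LacZ, all under the limit. The groups did not overlap, though the share of all probes without overlap was not computed. The 3 HMLE arrays differed from each other by more than the 1.10-fold range of the SUM159 arrays, which was itself a range of background values. Of the epithelial markers, CDH1 (E-cadherin), KRT5, KRT14, KRT8 and KRT19 had the same order within HMLE, and EPCAM and KRT18 did not. KRT8 was nearly level between HMLE LacZ (4226) and Gcnt2 (4290), with 2194 in the array labelled Foxq1. KRT19 was above the limit in HMLE Gcnt2 alone of these (153). CDH1 read 8097, 13304 and 1191 in HMLE LacZ, Gcnt2 and the array labelled Foxq1, and 96.5 to 175 in the cancer arrays. The summed intensity of the 7 epithelial markers on the array was 41350, 57030 and 21280 in the same HMLE order and 863 to 3058 in the cancer arrays, a sum made up mostly of KRT5, KRT14 and CDH1 in HMLE. The whole list did not follow FUT3: in HMLE Gcnt2 against LacZ none of the 7 was apart by 2-fold, EPCAM (317 against 356) and KRT18 (594 against 637) were a little lower, and KRT8 read 1756 in MDA-MB231 and 1200 in SUM159, where FUT3 was under the limit. CD14, the monocyte marker, read 645, 383 and 1574 in the same HMLE order. The part of these markers in the FUT3 differences was not tested.

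FUT3 has near-identical neighbours on chromosome 19, FUT5 and FUT6, whose transcripts a probe might share. The FUT5 probe lay between 115 and 126 in all arrays, and the brighter FUT6 probe was lowest in HMLE Gcnt2, at 133, with 163 in SUM1315, so neither followed FUT3. FUT1, which makes the H precursor, stayed low: 143 in SUM1315, 142 in MDA-MB231, 122 in SUM159, 173 in the array labelled IRX5, 147 in SUM159 LacZ, 178 in HMLE LacZ, 204 in HMLE Gcnt2 and 161 in the array labelled Foxq1. HMLE and cancer arrays overlapped for FUT1, and all 8 values lay within 1.66-fold. FUT2, the H enzyme of secretory tissues, was under the limit throughout (76.5 to 126), and so was ABO, the A and B transferase (96.6 to 126).

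A4GALT was lowest in SUM1315 and MDA-MB231. It read 207 and 161 there, 373 in SUM159, 449 in the array labelled IRX5, 370 in SUM159 LacZ, 541 in HMLE LacZ, 446 in HMLE Gcnt2 and 268 in the array labelled Foxq1. The SUM159 arrays, which spanned 1.21-fold, and the HMLE arrays, which spanned 2.01-fold, overlapped. From HMLE LacZ down to SUM159 LacZ each step was smaller than the SUM159 range, and the lower 3 steps, from SUM159 LacZ to the array labelled Foxq1, SUM1315 and MDA-MB231, were 1.38-fold, 1.29-fold and 1.29-fold.

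HS3ST3A1 separated the lines most sharply among the members with more than 3 detected arrays. It read 124 in SUM1315 and 131 in MDA-MB231, both under the limit, and 1090 in SUM159, 867 in the array labelled IRX5 and 1065 in SUM159 LacZ. In HMLE it read 1900 with LacZ, 472 with Gcnt2 and 1544 in the array labelled Foxq1. HMLE Gcnt2 thus stood below all 3 SUM159 arrays while the other HMLE arrays stood above them, and the largest step in the order, 3.60-fold, lay between HMLE Gcnt2 and MDA-MB231. HS3ST3B1, whose catalytic domain is nearly the same, was between 111 and 148 and did not follow it. CDH2 (N-cadherin), a mesenchymal marker, had the same break: 143 and 146 in SUM1315 and MDA-MB231 and 2322 to 7492 in the other 6 arrays, with HMLE Gcnt2 lowest of these. The mesenchymal list as a whole did not: VIM was highest in SUM1315, and the summed intensity of the 8 markers was 55280 and 26760 in those lines and 13000 to 51400 in the others. VIM made up the larger part of that sum in every array. The part of CDH2-bearing cells in the HS3ST3A1 levels was not tested.

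**Figure D2:**
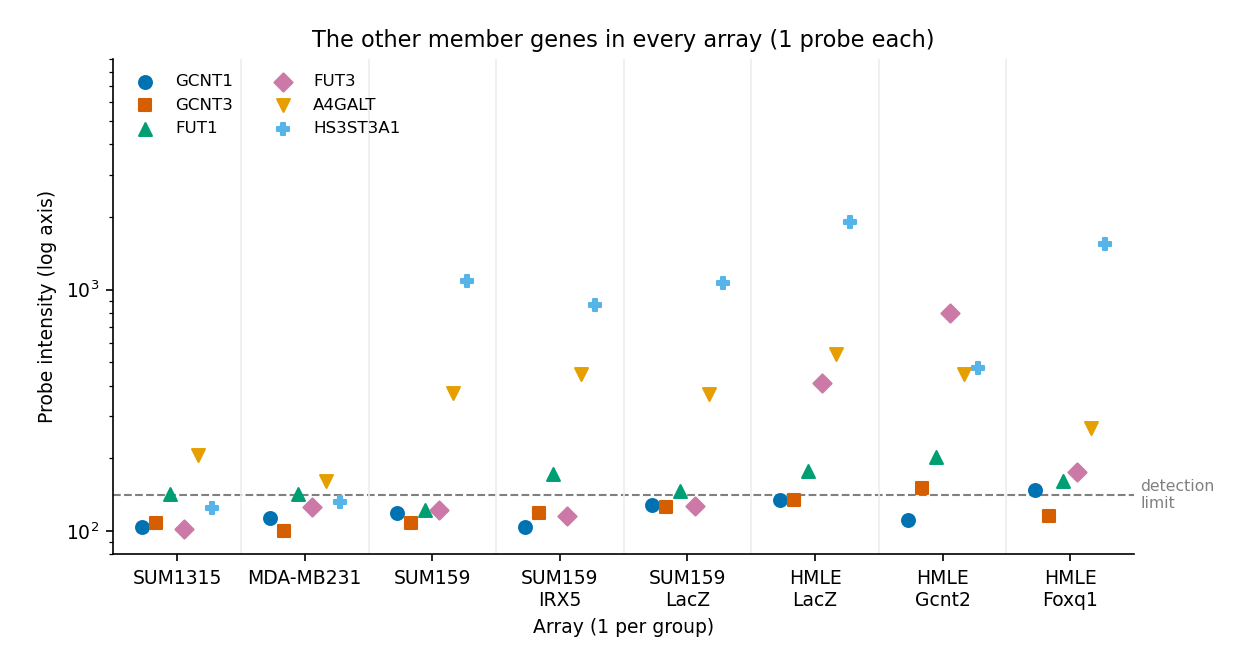
Intensity (log axis) of the single probes of GCNT1, GCNT3, FUT1, FUT3, A4GALT and HS3ST3A1 in each array, with the detection limit of 141 dashed. FUT3 passes the limit in the 3 HMLE arrays, at 176 to 801, and HS3ST3A1 is under it in SUM1315 and MDA-MB231 and at 472 to 1900 elsewhere.

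The first comparison, HMLE Gcnt2 against HMLE LacZ, sets the Gcnt2 transfectant against its control. Of the 6 member probes that could be compared, 2 were higher and 1 was lower at 2-fold, where 0.984% of all 14532 probes compared were apart by as much, 0.261% higher and 0.723% lower. The NM_145649 probe was at least 82.4-fold higher, first of all probes. It is annotated to GCNT2, the gene that was transfected, so its call is no result about the other members. FUT3 was the only other member called higher. HS3ST3A1 was 4.24-fold lower, with only 4 of the 14532 probes lower than it. FUT3 was 2.02-fold higher, at the edge of the call, since its ratio of intensities was 1.94. A4GALT was 1.23-fold lower, FUT1 1.17-fold higher and GCNT3 at least 1.09-fold higher, none of them called. The other 4 probes, including the remaining GCNT2 probes and GCNT1, were under the limit in both arrays. Of the mesenchymal markers, 3 of the 7 compared were also lower by 2-fold, CDH2 (2.63-fold), COL1A1 (3.73-fold) and VIM (2.40-fold), against 0.769% of all genes. The summed intensity of the 8 was 13000 against 29370 in LacZ, the larger part of it VIM. The part of these markers in the HS3ST3A1 difference was not tested. In the reference pair HS3ST3A1 differed by 1.02-fold, and FUT3 was under the limit in both arrays. COL1A1 was 4.43-fold lower in LacZ there, farther apart than in HMLE Gcnt2, while CDH2 was 1.61-fold and VIM 1.07-fold lower.

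The array labelled Foxq1 against HMLE LacZ has the same control. There 2 of 6 member probes were called, both lower, against 12.4% of all 15037 probes called in either direction and 6.87% lower. FUT3 was 2.63-fold lower and A4GALT 2.15-fold lower, sizes reached by 5.9% and 10% of all probes. HS3ST3A1 was 1.24-fold lower and FUT1 1.13-fold lower, and the NM_001491 probe of GCNT2 and the GCNT1 probe, dim in LacZ, were at least 1.11-fold and 1.06-fold higher. Of the markers, 4 of 7 mesenchymal ones were called higher, COL1A2 (5.69-fold), COL1A1 (4.24-fold), ZEB2 (3.97-fold) and VIM (a log2 difference of 1.07). The other mesenchymal ones compared were not called: CDH2 was 1.85-fold lower, FN1 1.63-fold lower and SNAI2 1.05-fold higher. Of the epithelial ones, 2 of 6 were called lower, CDH1 (6.95-fold) and KRT18 (at least 5.50-fold). Counted by gene as these markers are, 6.17% of all genes were higher and 5.49% lower. CD14 was 2.51-fold higher. In the reference pair CD14 was 2.66-fold higher in LacZ and COL1A1 4.43-fold lower, sizes no smaller than here. ZEB2 was 1.22-fold higher there, VIM 1.07-fold lower and KRT18 1.28-fold lower. The part of these markers in the FUT3 and A4GALT differences was not tested. FUT3 and A4GALT have 1 probe each, so the disagreement of probes in this array could not be checked for them. Gcnt2 and Foxq1 share the LacZ array: for FUT3 the log2 differences from it were 1.01 and -1.39, for A4GALT -0.30 and -1.10, and for HS3ST3A1 -2.08 and -0.30.

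In SUM159 no member was called for IRX5. Against LacZ, where 2.98% of 14640 probes were called, the 4 member probes compared lay within 1.30-fold, the NM_001491 probe of GCNT2 being the farthest apart. Against untransfected SUM159, where 6.1% of 14743 probes were called, the 3 measured on both sides lay within 1.27-fold, and FUT1, under the limit in the parent, was at least 1.29-fold higher with an intensity ratio of 1.41. The reference pair itself, LacZ against untransfected SUM159, had 3.36% of 14715 probes called and none of the members. Its largest measured member difference was GCNT2 by the NM_001491 probe, 1.65-fold lower in LacZ, while A4GALT and HS3ST3A1 were within 1.01-fold and 1.02-fold. By this GCNT2 probe the control transfectant therefore stood farther from the parent line than the array labelled IRX5 did, which was 1.27-fold below the parent. The other GCNT2 probes were under the limit in all SUM159 arrays.

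**Figure D3:**
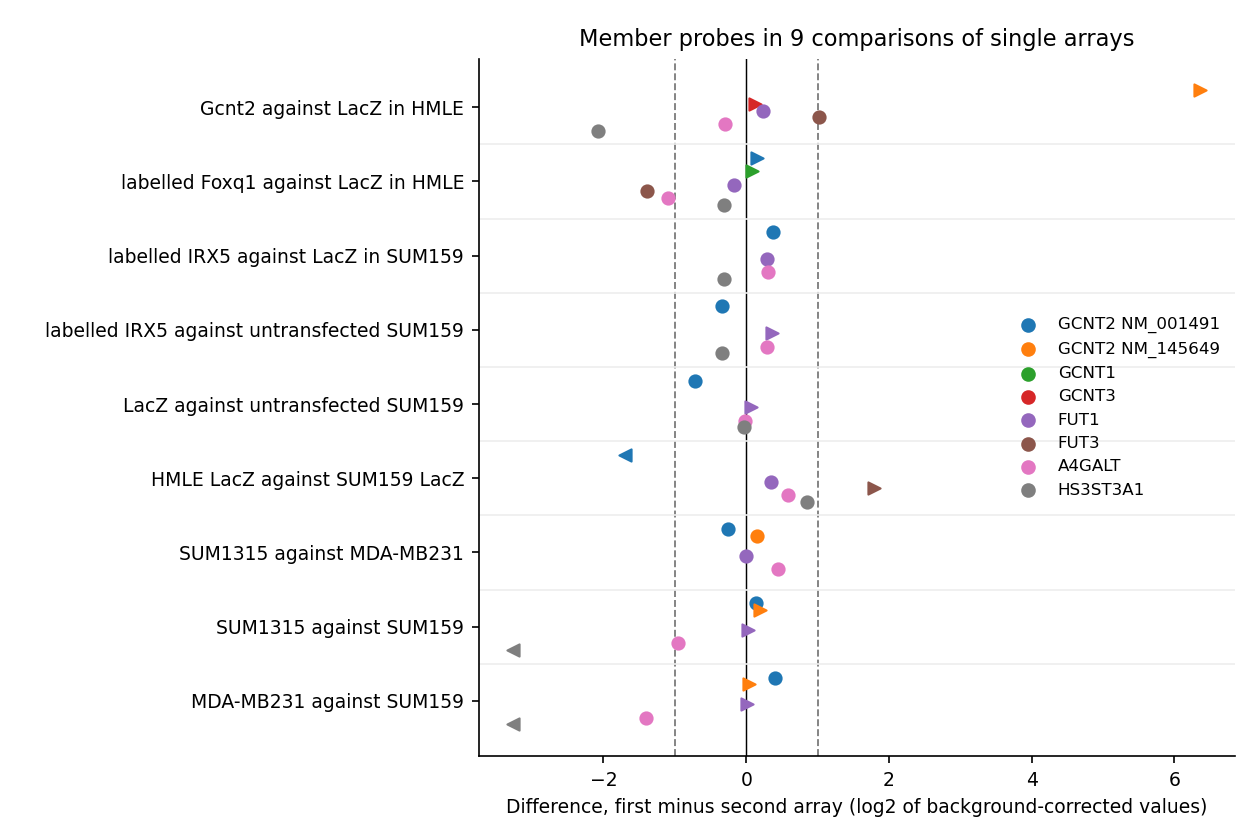
Log2 difference (first minus second array, background-corrected values) of each member probe that could be compared in the 9 comparisons. Circles are measured differences, triangles bounds with the dim array at the detection limit, and dashed lines mark 2-fold. The 3 SUM159 comparisons stay inside the lines, and the NM_145649 probe of GCNT2 in HMLE Gcnt2 lies farthest out, at 6.36.

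The LacZ cultures of HMLE and SUM159 carry the same control gene, and 15.3% of 15180 probes were called between them, 7.92% higher and 7.38% lower in HMLE. Of the 5 member probes compared, FUT3 was at least 3.46-fold higher in HMLE and GCNT2 by its NM_001491 probe at least 3.24-fold lower. HS3ST3A1 was 1.81-fold and A4GALT 1.5-fold higher in HMLE, under the threshold. Among the untransfected cancer lines, HS3ST3A1 was at least 9.62-fold lower in SUM1315 than in SUM159, where 17.6% of 15296 probes were called, with 8.38% of all lower, and 1.44% were as far apart. It was lower by the same bound in MDA-MB231, where 13.3% of 15154 probes were called, with 6.63% of all lower, and 1.08% were as far apart. The ratios of the intensities were 8.79 and 8.30, smaller than the bound on the corrected scale. A4GALT was 2.64-fold lower in MDA-MB231 than in SUM159 and 1.94-fold lower in SUM1315, not called. SUM1315 against MDA-MB231 gave no called member, although 20.4% of 15289 probes were called: the NM_001491 probe of GCNT2 was 1.20-fold lower in SUM1315 and A4GALT 1.36-fold higher. HS3ST3A1 was under the limit in both.

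Genes of related glycan enzymes were listed by role, 83 in 5 lists that leave out the 7 enzymes, and counted by each gene's brightest probe. The poly-N-acetyllactosamine list takes in B3GNT, B4GALT and B3GALT genes and B4GAT1. Some of these, such as B4GALT7 and B3GALT6, act on other chains, so its counts are not of that chain alone. In HMLE Gcnt2 against LacZ no gene of the 5 lists was called in either direction, where 0.274% of all genes were higher and 0.769% lower. Compared were 16 genes of the poly-N-acetyllactosamine list, 13 heparan sulfate enzymes, 9 core and branch enzymes, 8 fucosylation genes and 4 glycolipid and blood-group enzymes. Their list medians ranged from -0.26 for globo, ganglio and A or B antigen enzymes to 0.16 for heparan sulfate enzymes, with -0.001 over all genes. In the array labelled IRX5 against SUM159 LacZ none of the 5 lists had a call either, where 1.15% of all genes were higher and 1.96% lower. Against untransfected SUM159, where 2.99% of all genes were higher and 3.34% lower, 2 of 13 heparan sulfate enzymes were lower and none higher, and the other 4 lists had no call. These were EXT1, a polymerase of the chain, 3.05-fold lower (370 against 1064, with 579 in SUM159 LacZ), and EXTL3, which acts at the start of the chain, lower by a log2 difference of -1.08 (282 against 560, with 370 in SUM159 LacZ). In the array labelled Foxq1, 2 of 17 genes of the poly-N-acetyllactosamine list were lower and none higher, where 5.49% of all genes were lower and 6.17% higher. These were B3GNT2, which adds N-acetylglucosamine to extend the chain on which GCNT2 acts, 4.90-fold lower, and B4GALT4, a galactosyltransferase, 2.01-fold lower. B3GNT2 read 626 in HMLE LacZ, 744 in HMLE Gcnt2, 153 in the array labelled Foxq1 and 277 to 424 in the cancer arrays. The median of that list was 0.04, against 0.09 over all genes.

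Between the LacZ cultures, 3 of 17 genes of the poly-N-acetyllactosamine list were higher in HMLE than in SUM159. These were B4GALT4 by 3.82-fold, B3GNT5, which starts lacto-series glycolipids, by 2.56-fold and B3GNT2 by 2.29-fold. None was lower, and 8.32% of all genes were higher and 7.87% lower. The list median was 0.32, against -0.05 over all genes. In the fucosyltransferase and fucose donor list 1 of 8 was higher, FUT4, a maker of the Lewis x antigen, by at least 2.10-fold. FUT4 was brightest across arrays in MDA-MB231, at 601, and 4.76-fold higher there than in SUM159. The core and branch list had 0 of 8 called between the LacZ cultures.

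HS3ST3A1 stood apart from its sulfotransferase relatives in the same arrays. HS3ST1, which makes the antithrombin-binding form of heparan sulfate, read 484 in HMLE LacZ, 569 in HMLE Gcnt2 and 154 in the array labelled Foxq1, and 96.1 to 218 in the cancer arrays. HS3ST2 read 708, 990 and 218 in the same HMLE order and 98.4 to 120 in the cancer arrays. Both were thus highest in HMLE Gcnt2, where HS3ST3A1 was lowest of the HMLE arrays. Against LacZ, HS3ST1 was 1.19-fold and HS3ST2 1.42-fold higher in Gcnt2, not called, and they were 3.69-fold and 3.61-fold lower in the array labelled Foxq1. They were the 2 of 15 heparan sulfate enzymes called lower in that array, and 1 was higher, SULF1 by at least 2.1-fold. Of all genes, 5.49% were lower and 6.17% higher there, and the list median was 0.02, against 0.09 over all genes. Between the LacZ cultures, 5 of 14 heparan sulfate enzymes were higher in HMLE and none lower, where 8.32% of all genes were higher and 7.87% lower. The list median was 0.59, against -0.05 over all genes. Besides HS3ST2 (at least 6.14-fold), HS3ST1 (at least 4.11-fold) and EXT1, a polymerase of the chain (4.85-fold), these were NDST1, an N-sulfotransferase (2.79-fold), and the sulfatase SULF2 (2.22-fold).

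**Figure D4:**
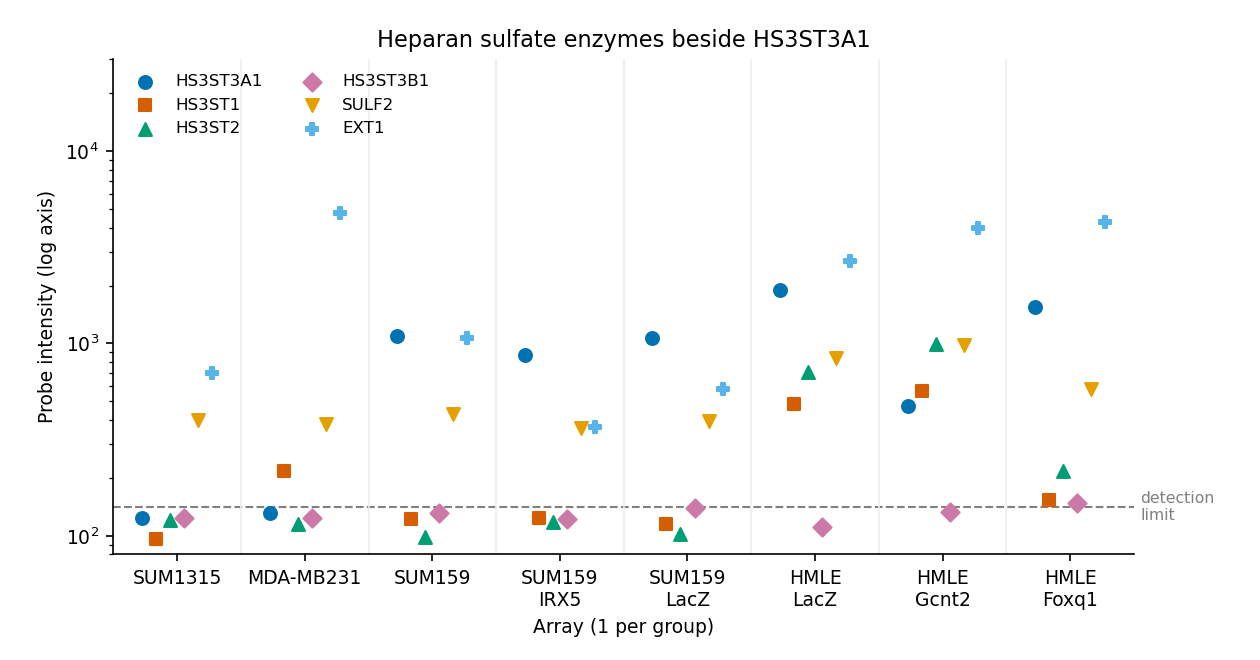
Intensity (log axis) of HS3ST3A1 and 5 other heparan sulfate enzymes in each array, by each gene's brightest probe, with the detection limit of 141 dashed; heights are comparable between arrays for 1 gene, not between genes. HS3ST1 and HS3ST2 are highest in HMLE Gcnt2, at 569 and 990, where HS3ST3A1 is at 472.

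Around A4GALT, enzymes of glycolipid chains differed between the untransfected cancer lines. UGCG, which makes the glucosylceramide from which these glycolipids start, read 487 in SUM1315, 3198 in MDA-MB231 and 1502 in SUM159. B3GALNT1, which extends the Pk antigen to globoside, read 203, 1069 and 373 in the same order. MDA-MB231 thus had the lowest A4GALT value of the 8 arrays, 161, and the highest values of both UGCG and B3GALNT1. In SUM1315 against MDA-MB231, 3 of the 6 glycolipid and blood-group enzymes compared were lower and 2 higher, where 10.9% of all genes were lower and 10.8% higher, and the list median was -0.97 against -0.004. UGCG was 6.95-fold lower, B3GALNT1 6.04-fold lower and GBGT1 at least 2.66-fold lower, while B4GALNT1, the ganglioside GM2 synthase, was 2.92-fold and B4GALNT4 3.81-fold higher. In MDA-MB231 against SUM159, 3 of 7 were higher and none lower, where 7.35% of all genes were higher and 6.97% lower, though the list median was -0.29.

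The genes whose levels followed each member most closely over the 8 arrays were listed by Pearson correlation of log2 corrected values, among 7143 genes that spanned 2-fold. The 8 points share cell lines and a common normalization, so these are descriptions. For the NM_001491 probe of GCNT2 they were KCTD20 (r = 0.986) and SMAD5, a signal transducer of bone morphogenetic proteins (r = 0.977), and without the array labelled Foxq1 r was 0.992 and 0.978 over 7 arrays. KCTD20 read 1713 to 2232 in the cancer arrays and 854 to 897 in HMLE. For FUT3 they were IL1RN, the interleukin-1 receptor antagonist of epithelia (r = 0.994), and MICALCL (r = 0.991), with 0.996 and 0.991 over 7 arrays. Over those 7 arrays IL1RN ranked 2 and MICALCL 19. FUT3 was under the limit in every cancer array, as was MICALCL (112 to 123), so these values rest on the HMLE arrays. IL1RN read 973 in HMLE LacZ, 1994 in HMLE Gcnt2, 278 in the array labelled Foxq1 and 110 to 145 in the cancer arrays.

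For A4GALT the nearest genes were TRIM7 (r = 0.972) and FNDC3A (r = 0.969). For HS3ST3A1 they were MFF, a mitochondrial fission factor (r = 0.970), and B4GALT1, the main galactosyltransferase of N-acetyllactosamine (r = 0.958). B4GALT1 read 291 and 294 in SUM1315 and MDA-MB231 and 526 to 758 in the other 6 arrays, with HMLE Gcnt2 lowest of these. For the NM_145649 probe of GCNT2 they were PRSS22 (r = 0.901) and IRF5 (r = 0.872), values that rest on the single high array. Among the members, A4GALT and HS3ST3A1 were the closest pair (r = 0.778, and 0.907 without the array labelled Foxq1). FUT3 and the NM_001491 probe of GCNT2 ran most opposite, with r = -0.858, and -0.934 over 7 arrays. FUT3 was under the limit in the cancer arrays, and that GCNT2 probe in HMLE LacZ and HMLE Gcnt2.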

How the data were processed

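Total RNA of 8 cultures, 1 array each, was labelled with biotin and read on Illumina bead arrays, per the labels. The deposited value table holds probe intensity on a linear scale. Sorted, its values vary across arrays by no more than 1.27% (coefficient of variation), so the authors had normalized between arrays. The submitters' processing notes list GenomeStudio, lumi 1.14 and R 2.11.1 with no role, and whether background was subtracted is not stated there. A further table has 16 columns that no label ties to a sample and was not used.

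From the deposited intensity, background was corrected with normexp (limma 3.58.1, R 4.3.3, offset 50) and log2 values were compared, as Python 3.11.15 computed. The detection limit is the mode of all log2 intensities plus the spread below it, mirrored, at a tail of 0.01. Symbols of 21813 of 21834 named probes were matched to RefSeq by Entrez number, and 2692 probes are unnamed. With 1 array a group no test was made, and the number of arrays limits the precision. The calling of folds was tested on simulated arrays with known changes. All member probes were named; so were up to 4 called genes per list and direction, and the 2 genes nearest in pattern. Members, lists and the motifs were chosen with earlier results of these data known. Alternatives were no background correction, offset 16, cyclic loess, a tail of 0.05, dim values kept as measured, 1 probe a gene, and leaving out the array labelled Foxq1, the last chosen after seeing the data.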

Additional observations from a re-analysis of the deposited data

How the results depend on the processing

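The counts of called members kept their value to within 1.5 times in 9 comparisons under no background correction, cyclic loess, a detection tail of 0.05, dim arrays kept as measured and 1 brightest probe a gene. With 1 probe a gene the count in HMLE Gcnt2 against LacZ was 2 in place of 3. GCNT2 was then represented by ILMN_1680390, dim in both arrays, so the call of the NM_145649 probe dropped out. With a normexp offset of 16 the number of called members in SUM1315 against SUM159 was 2 in place of 1, A4GALT being added, and the other 8 counts stayed within 1.5 times. All 10 called member differences kept their direction under the 5 alternatives to which each was put. FUT3 in HMLE Gcnt2 ranged from 1.94-fold without background correction to 2.12-fold, and so lost its call there. HS3ST3A1 in HMLE Gcnt2 ranged from 4.02-fold to 4.51-fold, and the NM_145649 probe of GCNT2 from at least 64.5-fold to 122-fold with the dim value kept. The bounds of HS3ST3A1 for SUM1315 and MDA-MB231 against SUM159 ranged from 7.72-fold to 13.5-fold. With a tail of 0.05, a limit of 131, 9 of the 10 member probes were detected in some array. No paired analysis was possible because each group has 1 array. Signal over background limits GCNT1, GCNT3, FUT1 and most GCNT2 probes, whose levels cannot order the cultures.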

Other observations

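EXT1, a polymerase of heparan sulfate, read 4768 in MDA-MB231, 701 in SUM1315 and 1064 in SUM159, and was 7.07-fold lower in SUM1315 than in MDA-MB231.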
